A study of Mus musculus with 18 samples.

Results

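Mouse embryonic fibroblasts (MEFs) kept in Scm, the complete medium made with S-FBS, were compared with MEFs moved from Scm to Rcm, the complete medium made with R-FBS, for 12 h (S-Rcm 12 h). The members were the 3 libraries titled S-Rcm 12 h and the 3 titled Scm 0 h, 6 of the 18 libraries in the series, chosen from their titles. The study asked how serum sets the sensitivity of MEFs to ferroptosis, with S-FBS the serum that left cells sensitive and R-FBS the serum that left them resistant. The other 4 groups of 3 libraries were the S-Rcm exchange at 24 h, steady Rcm, and the opposite exchange from Rcm to Scm (R-Scm) at 12 h and 24 h. All 18 libraries were paired-end mRNA-seq of wild-type MEFs, with neither a drug nor a gene edit in any group. The MEFs were a line bought from a cell repository, per the methods. The methods say of cell culture work in general that replicates were independent, but the labels do not say whether these libraries came from separate cultures, so p-values measure the spread between these libraries, which may be technical. No group had its medium renewed with the same serum, so the change of serum and the renewal of medium cannot be told apart in this comparison.

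Ferroptosis is a form of cell death driven by iron-dependent peroxidation of membrane phospholipids. Serum brings fibroblasts lipids, lipoproteins, vitamin A derivatives, hormones and growth factors, and cells answer such inputs through dedicated transcriptional programmes, among them NRF2 for electrophiles and oxidants, SREBP for sterols, PPAR for fatty acids, retinoic acid receptors for vitamin A, and ATF4 for amino acid supply. Genes that work against lipid peroxidation or its products include the glutathione peroxidase Gpx4 and enzymes that clear the reactive aldehydes that peroxidation leaves behind.

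The 6 libraries held 14534906 to 18717939 counts each, against 14534906 to 20313715 over all 18, and between 20614 and 21756 genes had at least 1 count. Every pair of libraries within these groups differed beyond counting noise, the chi-square divided by its degrees of freedom being 9.72 to 24.2. The TMM normalization factors did not overlap, at 0.993 to 1.0 in Scm and 1.02 to 1.03 in S-Rcm 12 h, while the 50 most abundant genes took 10.1% to 10.4% of counts in Scm and 9.65% to 9.80% in S-Rcm 12 h. The part of these shifts in the results was not tested. The summed level of 20 fibroblast markers was 11993 to 12483 CPM (counts scaled for the library's size) in Scm and 11504 to 12691 CPM in S-Rcm 12 h, and 18 of the 20 passed the filter on low counts. Of the 18, Thy1, a surface glycoprotein of fibroblasts, was the DEG, as described with the matrix genes. Markers of other cells that a MEF culture could hold were low: the 10 epithelial markers summed to at most 1.64 CPM, the 10 skeletal muscle markers to at most 2.19, the 12 haematopoietic markers to at most 18.5 and the 10 endothelial markers to at most 18.6. The 10 neural markers summed to 144 to 164 CPM and the 10 adipocyte markers to 16.4 to 18.6 CPM in Scm and 21.1 to 24.1 CPM in S-Rcm 12 h. Of these other-cell markers 16 were tested in edgeR and 0 were DEGs, with 4 at an unadjusted p under 0.05, 2 of them neural and 2 adipocyte. Over all genes tested, 14.3% had an unadjusted p under 0.05.

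After 12 h in Rcm, 132 of the 15381 genes tested were differentially expressed (DEGs), 92 higher and 40 lower than in Scm. To be called a DEG, a gene had to change by over 0.58 on the log2 scale in either direction and to have an adjusted p (Benjamini-Hochberg) under 0.05 in edgeR's quasi-likelihood test, fitted to all 18 libraries. The DEGs were 0.858% of the genes tested, 0.598% for the higher and 0.26% for the lower direction, and all genes together had a median log2 fold change of 0.019, with 53.5% above 0. The 3 and 3 libraries did not overlap for any of the 132, but they did not overlap for 4060 genes either, 26.4% of those tested. Protein-coding genes made up 88 of the 92 higher and 31 of the 40 lower DEGs, and processed pseudogenes 3 of the higher and 8 of the lower. With 1 library left out of the fit, the count fell to between 36 without Scm 1 and 76 without S-Rcm 12 h 1, with 42 without Scm 3, 58 without S-Rcm 12 h 3, 60 without Scm 2 and 65 without S-Rcm 12 h 2. In all 6 of those fits 31 of the DEGs were called, 22 higher and 9 lower, and they include Gsta4, Nqo1, Ptgr1, Hspa5, Calr, Angptl4, Cpt1a, Cxcl10, Thy1, Atf5, Slc7a5, Gpt2, Ndrg1 and Slc6a4.

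**Figure D1:**
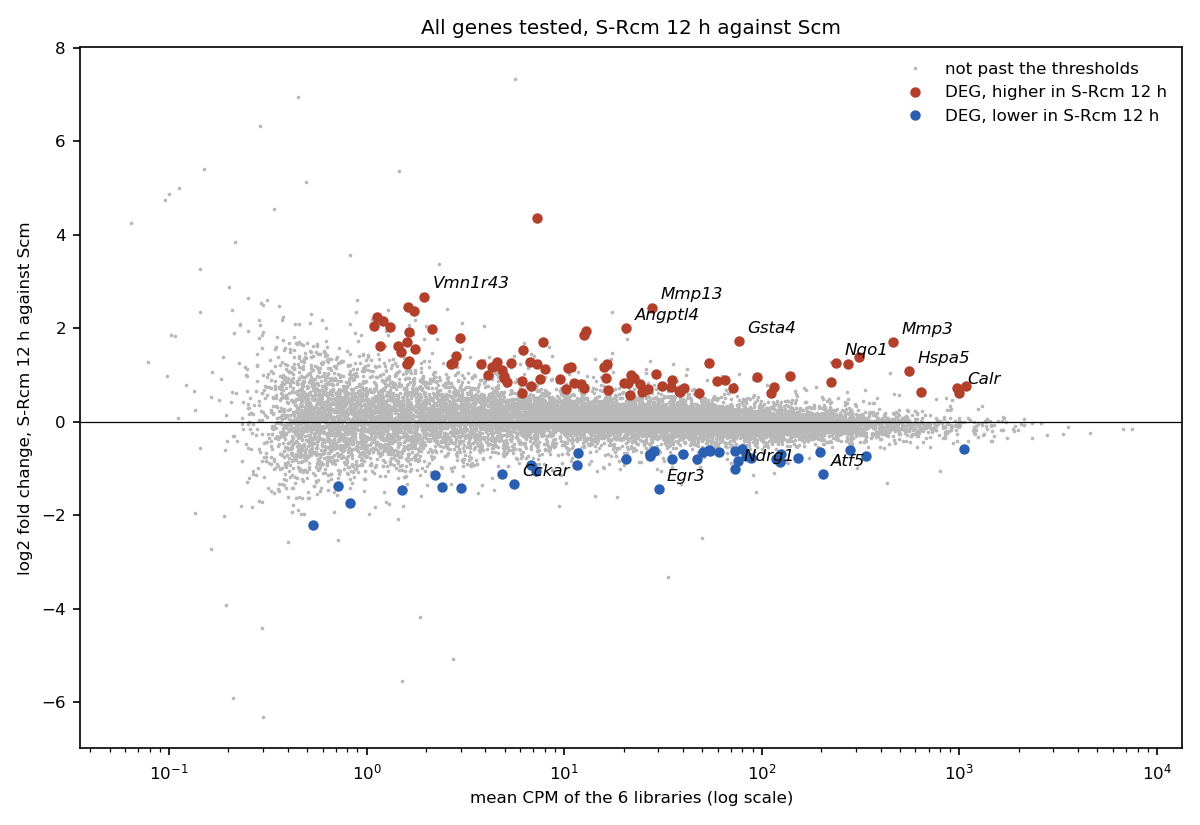
Log2 fold change of S-Rcm 12 h against Scm (vertical axis) for each of the 15381 genes tested, against its mean CPM over the 6 libraries (horizontal log axis), with the 92 higher DEGs in red and the 40 lower in blue. Most genes lie close to 0, and the higher DEGs reach larger fold changes than the lower ones.

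Promoter sequences of 8 DEGs are shown because short motifs known for the pathway of each gene stand in them. They are the 250 bases before the RefSeq start on GRCm38.p6, written 5′ to 3′ on the strand of the gene, with the motif in capitals. A window was at hand for 85 of the 132 DEGs. The first 3 encode chaperones of the endoplasmic reticulum (ER), with the endoplasmic reticulum stress element (CCAAT, any 9 bases, then CCACG) in capitals, on either strand: Hspa5 (chr2:34771840-34772089, plus strand), Hsp90b1 (chr10:86705445-86705694, minus strand) and Calr (chr8:84846932-84847181, minus strand). In GENCODE M21 the longest transcripts of these 3 genes, and that of Asns, begin within the windows shown.
Hspa5: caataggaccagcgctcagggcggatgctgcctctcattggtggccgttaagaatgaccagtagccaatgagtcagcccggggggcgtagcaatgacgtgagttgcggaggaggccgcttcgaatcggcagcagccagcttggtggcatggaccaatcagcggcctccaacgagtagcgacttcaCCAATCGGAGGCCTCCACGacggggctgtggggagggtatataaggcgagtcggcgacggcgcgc
Hsp90b1: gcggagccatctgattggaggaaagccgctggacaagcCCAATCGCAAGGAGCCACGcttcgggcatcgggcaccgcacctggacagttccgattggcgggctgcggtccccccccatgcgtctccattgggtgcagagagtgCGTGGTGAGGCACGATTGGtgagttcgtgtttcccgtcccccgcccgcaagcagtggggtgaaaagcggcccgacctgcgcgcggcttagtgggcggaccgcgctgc
Calr: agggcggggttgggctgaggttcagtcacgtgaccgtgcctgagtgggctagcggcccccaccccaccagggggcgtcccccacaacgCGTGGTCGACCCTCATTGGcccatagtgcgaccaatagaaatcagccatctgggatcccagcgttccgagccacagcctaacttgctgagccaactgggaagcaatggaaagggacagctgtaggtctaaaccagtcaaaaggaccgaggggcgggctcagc

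This element was present in 0.113% of the 32851 windows of all mouse promoters in the table, and in the windows of 8 of 23 genes of the ER chaperone list, 34.8%. The match begins 65 bases before the start in Hspa5, 162 in Calr, and 212 and 107 in Hsp90b1, where both strands carry one. Next are 2 genes induced by interferon, with the core of the interferon-stimulated response element (GAAA, any 2 bases, then GAAA), on either strand, in capitals: Ifit3 (chr19:34583279-34583528, plus strand) and the chemokine gene Cxcl10 (chr5:92348890-92349139, minus strand).
Ifit3: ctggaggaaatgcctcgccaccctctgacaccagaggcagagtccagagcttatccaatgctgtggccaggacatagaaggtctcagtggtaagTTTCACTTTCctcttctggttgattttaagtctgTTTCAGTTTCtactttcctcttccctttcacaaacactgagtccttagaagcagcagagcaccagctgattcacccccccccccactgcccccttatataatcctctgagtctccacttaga
Cxcl10: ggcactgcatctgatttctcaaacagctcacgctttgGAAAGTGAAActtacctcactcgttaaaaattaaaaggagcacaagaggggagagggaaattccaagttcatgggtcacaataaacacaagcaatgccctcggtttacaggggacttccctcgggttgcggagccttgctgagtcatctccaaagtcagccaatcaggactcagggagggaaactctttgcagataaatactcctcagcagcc

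The core was found in 2.98% of all windows and in those of 18 of the 36 interferon-stimulated genes with one, 50%. Of the 3 DEGs of that list Ifit3 holds it, and the windows of Oasl1 and H2-K1 do not. The neighbouring metalloproteinase genes Mmp13 (chr9:7272264-7272513, plus strand) and Mmp3 (chr9:7445572-7445821, plus strand) carry the AP-1 site TGANTCA, and the asparagine synthetase gene Asns (chr6:7693210-7693459, minus strand) the composite TGATGNAA bound by C/EBP-ATF dimers.
Mmp13: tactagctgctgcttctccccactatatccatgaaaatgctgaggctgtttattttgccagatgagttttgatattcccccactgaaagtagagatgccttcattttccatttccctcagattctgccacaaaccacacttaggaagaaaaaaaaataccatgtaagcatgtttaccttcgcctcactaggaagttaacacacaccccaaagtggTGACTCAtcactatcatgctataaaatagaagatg
Mmp3: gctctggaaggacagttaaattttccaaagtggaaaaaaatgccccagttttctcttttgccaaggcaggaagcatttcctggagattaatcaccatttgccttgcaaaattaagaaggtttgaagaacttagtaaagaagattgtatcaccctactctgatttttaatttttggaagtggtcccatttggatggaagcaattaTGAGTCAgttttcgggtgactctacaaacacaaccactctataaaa
Asns: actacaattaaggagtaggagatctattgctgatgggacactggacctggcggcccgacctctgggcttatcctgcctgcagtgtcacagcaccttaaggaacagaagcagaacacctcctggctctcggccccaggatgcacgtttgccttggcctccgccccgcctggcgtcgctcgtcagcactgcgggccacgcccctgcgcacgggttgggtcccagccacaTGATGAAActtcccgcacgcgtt

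The AP-1 letters begin 35 bases before the start in Mmp13 and 46 in Mmp3, and are present in 6.75% of all windows, Hspa5, Cxcl10 and Ifit3 among them. Of 10 metalloproteinase genes with a window 3 hold them, Mmp13, Mmp3 and Mmp10, the last of which was no DEG. They are present in 12.3% of the higher and 20% of the lower DEGs with a window. The Mmp13 window also holds the interferon-stimulated response element core. The composite begins 23 bases before the start of Asns and is present in 3.45% of all windows. It is present in 25% of the 24 ATF4-list genes with a window, and Asns is the 1 that holds it of the 4 DEGs among the 24. The core of the antioxidant response element bound by NRF2, TGACNNNGC, is present in 10.2% of all windows and in 5 of 20 windows of the NRF2 list, but in 0 of the 3 windows of DEGs in that list and 0 of the 3 of glutathione transferase DEGs. Gsta4, a DEG of both of these lists, had no window, so its promoter was not searched. Gsta1 and Gsta2 stand in both sets of 3, which are therefore not separate observations. Bases outside the windows were not searched. A match is a description of the letters, and binding was not measured. Each motif was searched on both strands, and TGANTCA and TGACNNNGC can match at the same place. Shares of all windows count windows, while shares of a list count genes with a match in any window, so the units differ.

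Enzymes that conjugate glutathione to electrophiles included Gsta4, the gene with the smallest p of all tested. The list of these transferases was written after the values were seen, so its counts and median are not a result about the family. Of the 17 glutathione transferases tested, 4 were DEGs, each higher in S-Rcm 12 h, and the median log2 fold change of the family was 0.53 against 0.019 for all genes, with 15 of 17 above 0. Gsta4, whose enzyme is known for conjugating the lipid peroxidation product 4-hydroxynonenal, stood at 32.8, 38.5 and 35.9 CPM in Scm and at 119, 109 and 125 CPM in S-Rcm 12 h. The groups were far apart, with each exchanged library about 3-fold above the Scm libraries, and the log2 fold change was 1.72 ± 0.10 (SE, n = 3 per group, adjusted p = 1.81e-07, edgeR). Gsta1 was at 1.5, 1.46 and 1.03 CPM in Scm and 4.27, 3.81 and 5.85 CPM after the exchange, a log2 fold change of 1.79 ± 0.30 (adjusted p = 0.00668, edgeR). Gsta2 was lower still in Scm, at 0.588, 0.624 and 0.275 CPM, and reached 2.74, 2.75 and 2.81 CPM (log2 fold change 2.45 ± 0.42, adjusted p = 0.00859, edgeR). Neither gene overlapped between the groups, but their transcripts are 97.2% identical over 870 bases. Gsta1 is also 99.5% identical to Gm3776 over 874 bases, and Gsta2 is 98.2% identical to Gm10639 over 869. How the counting divided reads among these genes is not given in the sources used here. The microsomal transferase gene Mgst2 also rose, from 0.588 to 1.31 CPM in Scm to 2.07 to 2.46 CPM (log2 fold change 1.24 ± 0.29, adjusted p = 0.0462, edgeR). The remaining members ranged from 0.91 for Mgst1 to −0.48 for Mgst3 on the log2 scale and did not pass. The call of Gsta4 held with any library left out, that of Gsta1 was lost without Scm 3 (adjusted p = 0.055), that of Gsta2 without Scm 1 or Scm 3 (at most 0.0589), and that of Mgst2 in each of the 6 fits with a library left out (0.0589 to 0.217).

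The list of NRF2 targets, in which Gsta1, Gsta2 and Gsta4 also stood, held 1 further DEG. Nqo1, a quinone reductase, was at 134, 149.6 and 141 CPM in Scm and at 344, 329.8 and 337 CPM in S-Rcm 12 h. The exchanged libraries were 2-fold higher or more and tightly grouped, and the log2 fold change was 1.25 ± 0.11 (adjusted p = 1.91e-05, edgeR). Of the 27 NRF2 targets tested, 4 were thus DEGs, beside 0.858% of all genes. The median log2 fold change of the list was 0.26 and 22 of 27 were above 0, beside 53.5% of all genes. Pgd and Srxn1, of the pentose phosphate pathway and peroxiredoxin repair, had log2 fold changes of 0.48 and 0.45 with adjusted p-values of 0.0192 and 0.0407 (edgeR), under the fold threshold. Other well-known targets stayed near 0: 0.04 for the haem oxygenase gene Hmox1, 0.13 for Gclc, 0.25 for Gclm and 0.23 for Txnrd1, while Slc7a11, the cystine importer, was at −0.57 (adjusted p = 0.563, edgeR). The count of 4 became 3 without Scm 1 and 2 without Scm 3.

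Of 25 tested genes for handling aldehydes and ketones, a list written after the values were seen, 7 were DEGs, each higher, and 18 did not pass. The median log2 fold change of the list was 0.50. Since the list was chosen with the values in view, its count and median are not a result about such genes. Ptgr1, an alkenal and prostaglandin reductase, was at 33.0, 32.3 and 30.6 CPM in Scm and 78.0, 69.8 and 82.7 CPM in S-Rcm 12 h (log2 fold change 1.26 ± 0.13, adjusted p = 9.53e-05, edgeR). Esd, the esterase that completes the glutathione-dependent removal of formaldehyde, was at 153, 166 and 161 CPM in Scm and 287, 268 and 309 CPM after the exchange (log2 fold change 0.85 ± 0.10, adjusted p = 0.000393, edgeR). The list also counts Cyb5a, which is an electron carrier of the ER. Cyb5a went from 44.7, 48.0 and 42.9 CPM to 86.6, 78.6 and 88.5 CPM (log2 fold change 0.90 ± 0.15, adjusted p = 0.00539, edgeR). In these 3 genes each exchanged library lay well above each Scm library, and their calls, with that of Nqo1, held with any library left out. Aox1 at 1.18, Aldh1a7 at 0.62 and Akr1b3 at 0.61 on the log2 scale were also DEGs of the list, with adjusted p-values of 0.043, 0.0321 and 0.0353 (edgeR). The calls of Aox1 and Akr1b3 were lost in each of the 6 fits with a library left out (adjusted p between 0.077 and 0.179), and that of Aldh1a7 in each but the fit without S-Rcm 12 h 1 (at most 0.178). Esd has close copies, of which the processed pseudogene Esd-ps is 97% identical over 847 bases and was itself a higher DEG. Aldh3a1, an aldehyde dehydrogenase, had a log2 fold change of 2.06 that did not pass (adjusted p = 0.175), and Aldh2, of mitochondria, and Aldh1a1 were at 0.00 and −0.02.

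Of the 25 ER chaperones and folding enzymes tested, again a list written after the values were seen, 5 were DEGs, each higher, and 20 did not pass. The median log2 fold change was 0.22 and 21 were above 0, beside 53.5% of all genes. As the list was chosen with the values in view, its count and median are not a result about ER genes. Hspa5, the gene of BiP, the principal Hsp70 chaperone of the ER, was at 356, 354 and 363 CPM in Scm and at 734, 773 and 769 CPM in S-Rcm 12 h. The level of BiP mRNA was thus about 2-fold higher in each exchanged library, and the log2 fold change was 1.09 ± 0.16 (adjusted p = 0.00372, edgeR). Calr, the calcium-binding lectin chaperone calreticulin, was at 782, 813 and 769 CPM in Scm and 1244, 1178 and 1218 CPM after the exchange (log2 fold change 0.62 ± 0.07, adjusted p = 0.000156, edgeR). Hsp90b1, which encodes GRP94, went from 721, 721 and 767 CPM to 1112, 1338 and 1206 CPM (log2 fold change 0.73 ± 0.13, adjusted p = 0.00867, edgeR). These were the 3 DEGs whose promoters held the stress element. The promoters of Canx, Creld2, Dnajc3, Pdia6 and Syvn1 of the same list held it too, and these genes were not DEGs. The calcium-binding protein gene Rcn3 at 0.84 and the ER membrane protein gene Wfs1 at 0.58 also passed, with adjusted p-values of 0.03 and 0.0321 (edgeR), and Pdia4, a disulfide isomerase, had a log2 fold change of 0.43 with an adjusted p of 0.0104. Other genes of the unfolded protein response did not pass: Xbp1 was at −0.17, Dnajb9 at −0.16, Herpud1 at −0.16, Edem1 at −0.14 and Hyou1 at 0.25 on the log2 scale, and Ddit3 fell, as described with the ATF4 targets. Hspa5 and Calr were called with any library left out, Hsp90b1 was lost without Scm 1 (adjusted p = 0.0576), Rcn3 and Wfs1 were lost in each of the 6 fits (0.0538 to 0.144), and Wfs1, at the fold threshold, was also lost with other size factors or count filters.

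**Figure D2:**
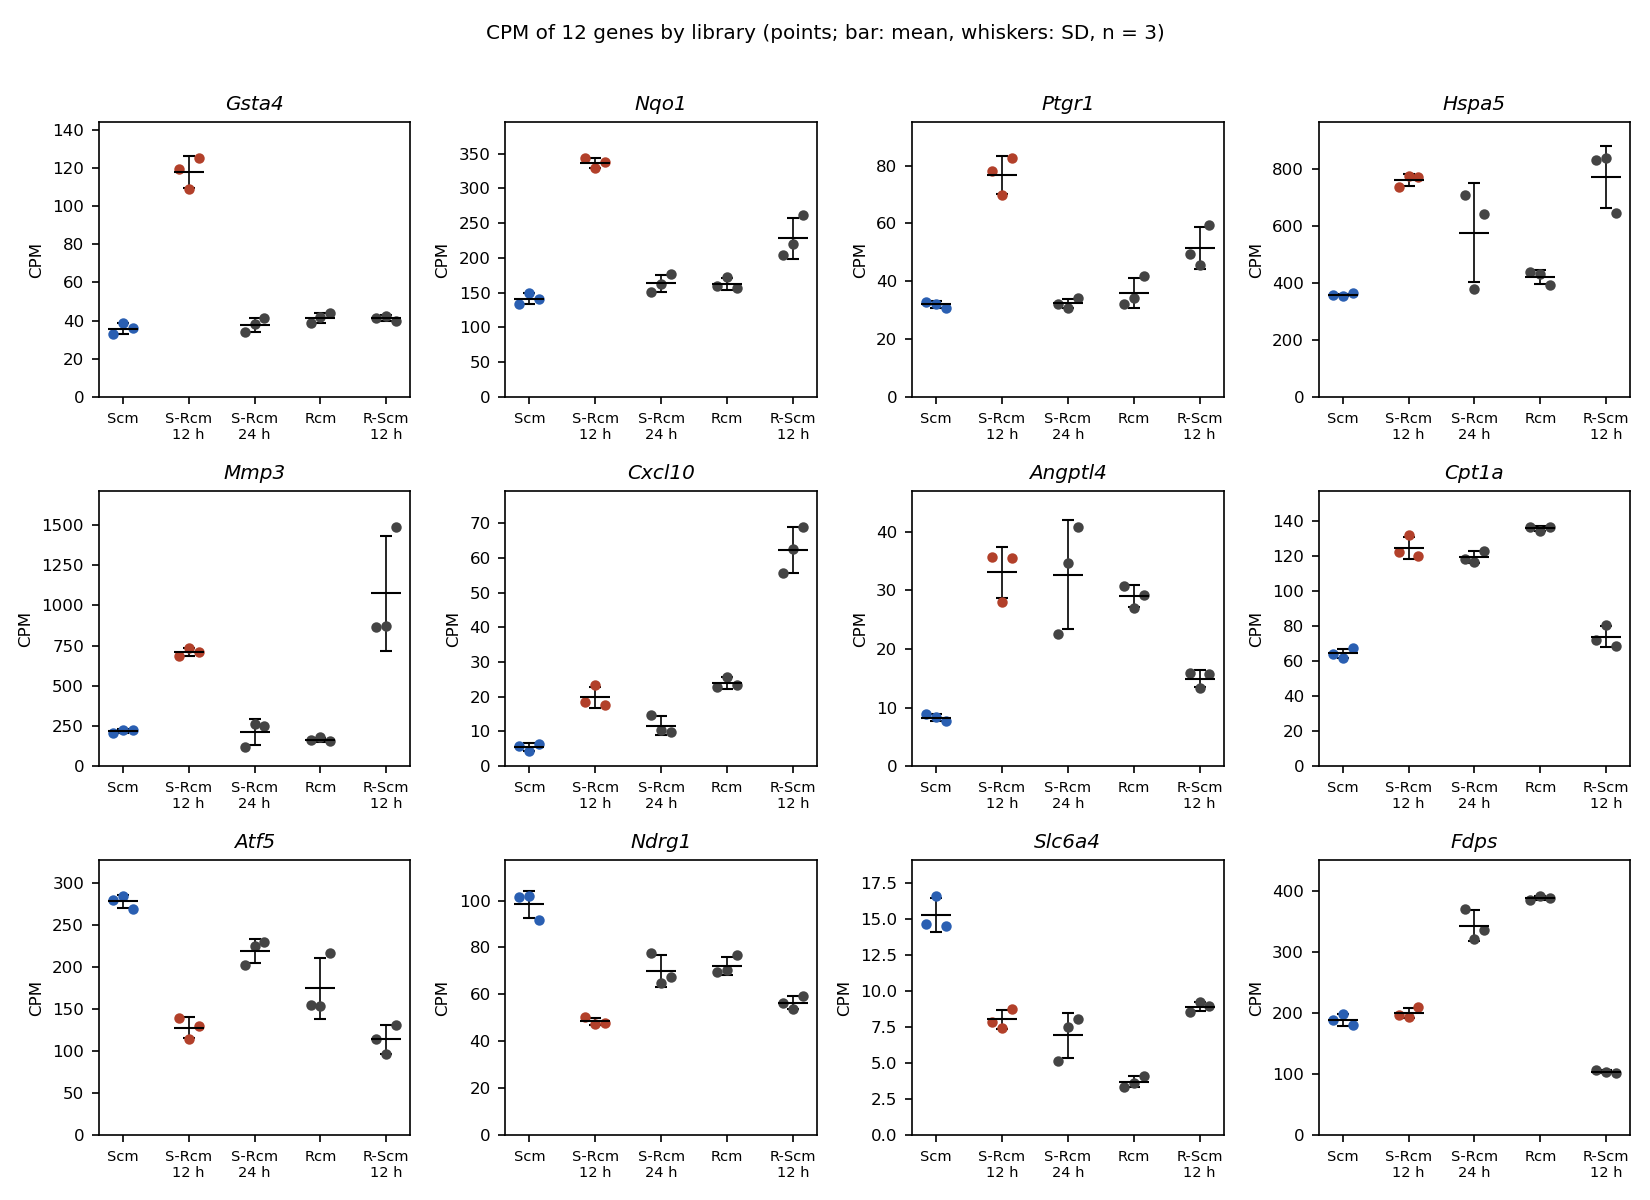
CPM of 12 genes (vertical axes, from 0) in the 3 libraries each of Scm, of S-Rcm at 12 h and at 24 h, of Rcm and of R-Scm 12 h, as points with a bar at the mean and whiskers of 1 SD (n = 3). Gsta4 stands near 36 CPM in Scm, near 118 in S-Rcm 12 h and near 38 at 24 h, while Fdps shows no separation between Scm and S-Rcm 12 h.

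Interferon-stimulated genes, which encode antiviral effectors and antigen presentation proteins, leaned upwards as a list with few single genes past the thresholds. Of 49 tested, 3 were DEGs, beside 0.858% of all genes, and the median log2 fold change was 0.95 against 0.019 for all genes. Of the 49, 47 were above 0, beside 53.5% of all genes. For 41 the 3 and 3 libraries did not overlap, beside 26.4% of all genes. Ifit3, an antiviral tetratricopeptide protein, was at 3.10, 4.09 and 3.85 CPM in Scm and 10.8, 14.1 and 10.7 CPM in S-Rcm 12 h (log2 fold change 1.70 ± 0.38, adjusted p = 0.0409, edgeR). Oasl1, of the oligoadenylate synthetase family, was at 0.588, 0.277 and 0.275 CPM in Scm and 2.57, 1.85 and 1.23 CPM after the exchange (log2 fold change 2.25 ± 0.42, adjusted p = 0.0137, edgeR). H2-K1, a heavy chain of MHC class I, was at 26.4, 25.2 and 17.9 CPM and then 38.7, 35.4 and 43.5 CPM (log2 fold change 0.76 ± 0.17, adjusted p = 0.0321, edgeR). Each of the 3 was higher in every exchanged library than in any Scm library. Large values that did not pass include Oas2 at 2.61, Ifih1 at 2.35, Rsad2 at 2.09, Ifit1 at 1.85 and Isg15 at 1.17 on the log2 scale, with adjusted p-values of 0.159, 0.15, 0.127, 0.0509 and 0.0818 (edgeR). The count of this list depended on the fit: 13 members passed in DESeq2 on the 18 libraries and 19 in edgeR on the 6 libraries alone, while at most 1 passed with a library left out and 0 did without Scm 3 or S-Rcm 12 h 1. Ifit3 and Ifit3b share 97.8% of 1700 bases, so the division of reads between them is uncertain. The GTPase genes Gbp9 and Tgtp1, named among the largest rises, are of the same kind: Gbp9 went from 0.416 to 0.642 CPM to 1.70 to 2.52 CPM and Tgtp1 from 0.374 to 0.485 CPM to 1.51 to 1.92 CPM. Tgtp1 and Tgtp2 share 99.8% of 2811 bases, so the division of reads between these 2 is uncertain as well.

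Chemokines, the secreted attractants of leukocytes, gave 3 DEGs of 20 chemokines and cytokines tested, each higher, with a median log2 fold change of 0.44. Of all genes, 0.598% were higher DEGs. Cxcl10, a ligand of the receptor CXCR3, was at 5.72, 4.30 and 6.46 CPM in Scm and at 18.5, 23.3 and 17.7 CPM in S-Rcm 12 h. The groups were well separated, and the log2 fold change of 1.85 ± 0.18 (adjusted p = 5.12e-05, edgeR) was called with any library left out. Ccl5 was at 0.481 to 0.832 CPM in Scm and 1.53 to 2.69 CPM after the exchange (log2 fold change 1.62 ± 0.29, adjusted p = 0.0103, edgeR). The neutrophil attractant Cxcl1 was at 4.39, 3.33 and 3.99 CPM and then 9.58, 8.57 and 10.5 CPM (log2 fold change 1.29 ± 0.26, adjusted p = 0.0229, edgeR). Ccl5 was lost without Scm 1, Scm 3 or S-Rcm 12 h 3 (adjusted p at most 0.0686) and Cxcl1 in each of the 6 fits (0.0535 to 0.105). Ccl2 and Ccl7 were at 0.67 and 0.58 on the log2 scale and did not pass, and Il6 had no count in Scm and at most 0.329 CPM in S-Rcm 12 h.

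Genes of matrix breakdown and matrix assembly both held members that rose. Mmp3, the protease stromelysin, was at 206, 224 and 223 CPM in Scm and at 686, 738 and 708 CPM in S-Rcm 12 h (log2 fold change 1.70 ± 0.34, adjusted p = 0.024, edgeR). Mmp13, a collagenase, was at 8.88, 8.80 and 8.45 CPM in Scm and at 46.1, 52.6 and 43.1 CPM after the exchange (log2 fold change 2.44 ± 0.48, adjusted p = 0.0236, edgeR). The replicates within each of these groups lay close together and the groups 3-fold or more apart, whereas the libraries of other groups spread more widely, with R-Scm 12 h at 864, 874 and 1488 CPM for Mmp3. These were the DEGs among 17 metalloproteinases, whose median log2 fold change was 0.27, where 0.598% of all genes were higher DEGs. Both calls were lost when any 1 of the 6 libraries was left out (adjusted p between 0.0619 and 0.115), and in edgeR on the 6 libraries alone 5 members of the list passed. Among 32 collagens and other matrix genes, Loxl2, a lysyl oxidase that crosslinks collagen, rose from 41.7, 42.4 and 42.9 CPM to 76.6, 79.7 and 74.5 CPM (log2 fold change 0.86 ± 0.17, adjusted p = 0.0192, edgeR). Its transcript is 100% identical to that of Gm21451 over 2348 bases, so the division of its reads is uncertain. Thbs1, encoding thrombospondin, was at 812, 753 and 841 CPM in Scm and 1363, 1529 and 1223 CPM in S-Rcm 12 h (log2 fold change 0.77 ± 0.18, adjusted p = 0.0409, edgeR). Both of these were lost in each of the 6 fits with a library left out (0.0606 to 0.158), and the fibrillar collagens Col1a1, Col1a2 and Col3a1 had log2 fold changes of 0.27, 0.02 and 1.05 that did not pass. Ccn2, connective tissue growth factor and a YAP target, was at 159, 168 and 161 CPM and then 395, 392 and 363 CPM (log2 fold change 1.24 ± 0.21, adjusted p = 0.00757, edgeR), the 1 DEG of 28 SRF and YAP targets. The call of Ccn2 was lost without Scm 1 or Scm 3 (at most 0.0537). Thy1 went from 54.3, 54.9 and 53.1 CPM to 91.9, 90.3 and 84.2 CPM (log2 fold change 0.71 ± 0.12, adjusted p = 0.00657, edgeR) and held in all 6.

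Of the 12 retinoid genes tested, 3 rose and 9 did not pass, with a median log2 fold change of 0.21 over the list. Higher DEGs were 0.598% of all genes. Stra6, the cell-surface receptor that takes up retinol, was at 0.642, 0.485 and 0.550 CPM in Scm and at 2.63, 3.75 and 2.40 CPM in S-Rcm 12 h (log2 fold change 2.36 ± 0.41, adjusted p = 0.00886, edgeR). Cyp26b1, which degrades retinoic acid, was at 7.33, 6.03 and 5.98 CPM and then 14.8, 14.2 and 14.2 CPM (log2 fold change 1.16 ± 0.18, adjusted p = 0.00469, edgeR). Dhrs3, a retinaldehyde reductase, was at 13.9, 17.0 and 15.6 CPM and then 32.1, 29.1 and 27.2 CPM (log2 fold change 0.93 ± 0.19, adjusted p = 0.0208, edgeR). In all 3 each exchanged library exceeded each Scm library. The receptors Rara and Rxra were at −0.35 and −0.08 on the log2 scale and the retinoic acid carrier Crabp2 at 0.47, none past the thresholds. Cyp26b1 was called with any library left out, Stra6 was lost without any 1 of the Scm libraries (adjusted p at most 0.055) and Dhrs3 in each of the 6 fits (0.0559 to 0.118).

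Fatty acid responsive genes gave 2 DEGs of 24 PPAR targets and oxidation enzymes, both higher and both called with any library left out. The list median was 0.21, and 0.598% of all genes were higher DEGs. Angptl4, a secreted inhibitor of lipoprotein lipase and a classical PPAR target, was at 8.83, 8.32 and 7.63 CPM in Scm and at 35.7, 28.1 and 35.6 CPM in S-Rcm 12 h. The 2 groups did not overlap and the log2 fold change was 2.0 ± 0.19 (adjusted p = 2.99e-05, edgeR). Cpt1a, which commits fatty acids to mitochondrial import, was at 64.3, 61.8 and 67.3 CPM in Scm and at 123, 132 and 120.2 CPM after the exchange (log2 fold change 0.95 ± 0.14, adjusted p = 0.00372, edgeR). Slc25a20, the carnitine carrier that works next to Cpt1a, had a log2 fold change of 0.53 with an adjusted p of 0.0279, under the fold threshold. Plin2, Pdk4 and Acadm were at 0.29, 0.20 and 0.17 and did not pass.

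**Figure D3:**
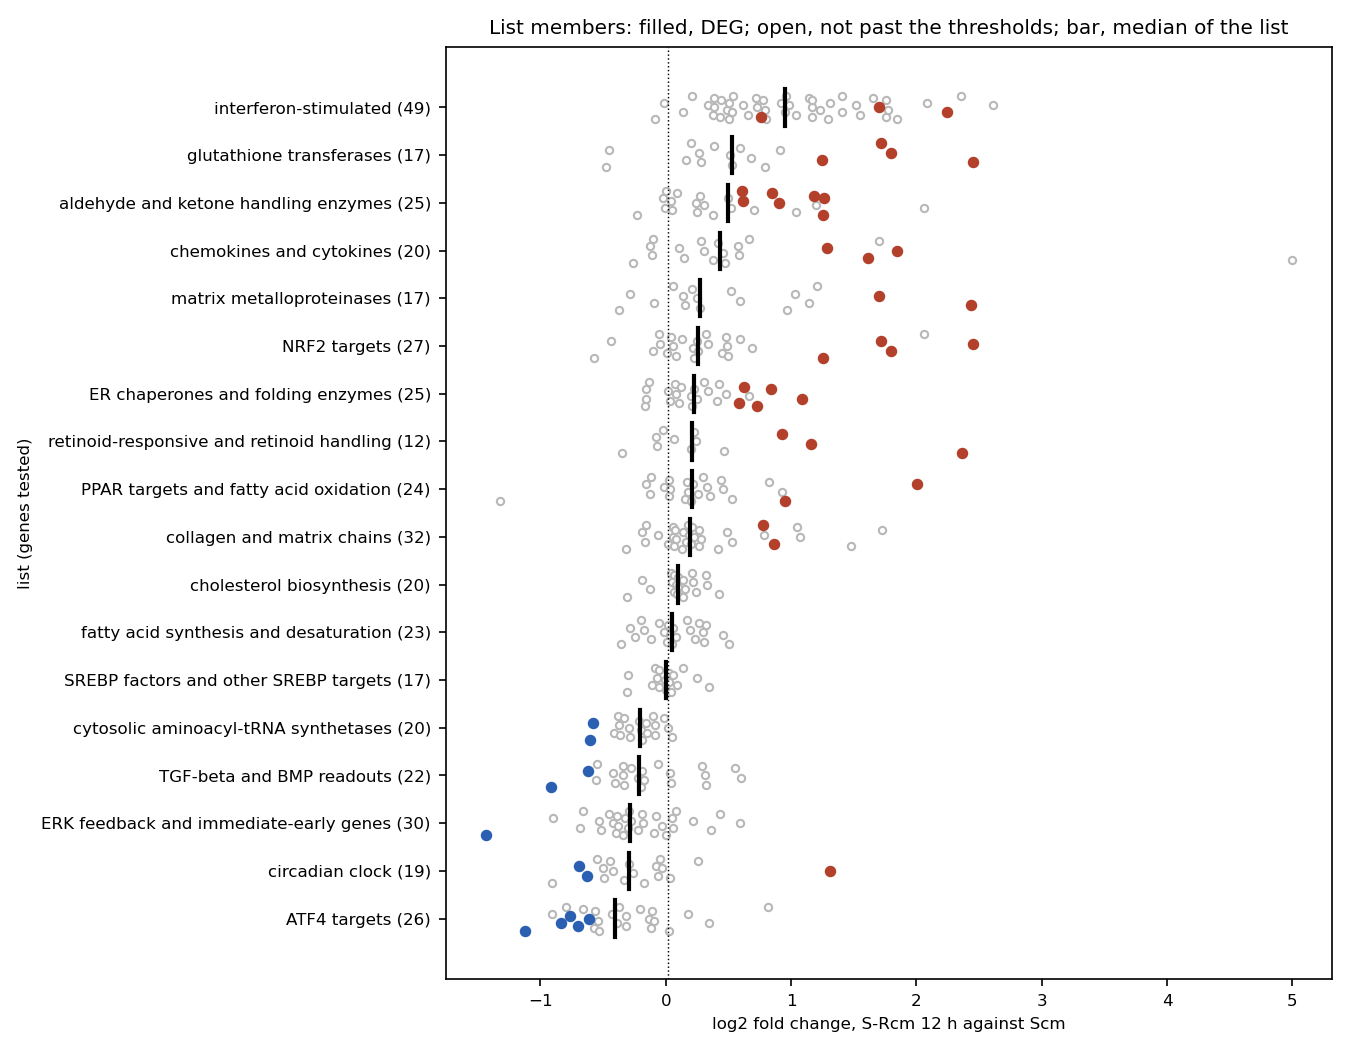
Log2 fold change of S-Rcm 12 h against Scm (horizontal axis) for the tested members of 18 gene lists (rows), with filled points for DEGs, open points for the others, a bar at each list's median and a dotted line at the median of all genes, 0.019. Interferon-stimulated genes have a median of 0.95, and ATF4 targets lie mostly left of the line.

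The genes that fell included a group for amino acid supply. Of the 26 ATF4 targets tested, 5 were DEGs, each lower, where 0.26% of all genes were lower DEGs. The median log2 fold change of the list was −0.41 and only 4 were above 0, beside 53.5% of all genes. Atf5, a transcription factor of this response, was at 281, 285 and 269.6 CPM in Scm and at 139, 115 and 130.4 CPM in S-Rcm 12 h. Its level was at or below 139 CPM in each exchanged library and at least 269.6 in each Scm library, a log2 fold change of −1.12 ± 0.17 (adjusted p = 0.00488, edgeR). Asns, which makes asparagine, was at 89.8, 98.2 and 102 CPM and then 53.1, 56.4 and 53.4 CPM (log2 fold change −0.83 ± 0.16, adjusted p = 0.016, edgeR). Slc7a5, the carrier of large neutral amino acids, was at 196, 188 and 191 CPM and then 119.9, 111 and 107 CPM (log2 fold change −0.77 ± 0.13, adjusted p = 0.00657, edgeR). The aminotransferase gene Gpt2 was at 64.0, 66.3 and 65.4 CPM and then 42.3, 41.7 and 44.2 CPM (log2 fold change −0.61 ± 0.10, adjusted p = 0.00539, edgeR). Ddit3, encoding the stress factor CHOP, was at 48.7, 51.6 and 47.5 CPM and then 31.2, 27.2 and 32.7 CPM (log2 fold change −0.70 ± 0.13, adjusted p = 0.0134, edgeR). In none of the 5 did the groups overlap. Psat1 and Pycr1, of serine and proline synthesis, had log2 fold changes of −0.53 and −0.56 with adjusted p-values of 0.0451 and 0.0354 (edgeR), under the fold threshold, Trib3 was at −0.91 (adjusted p = 0.104) and Atf4 itself at −0.21. Of 20 cytosolic aminoacyl-tRNA synthetases, a list written after the values were seen, only 2 were above 0, the median was −0.21, and Sars at −0.60 and Cars at −0.58 were the DEGs (adjusted p = 0.0168 and 0.0229, edgeR). With a library left out 3 or 4 ATF4 targets were called, Atf5, Slc7a5 and Gpt2 in all 6 fits. Asns was lost in each (adjusted p between 0.051 and 0.0811), Ddit3 without any Scm library or S-Rcm 12 h 2 (at most 0.0711), and Sars and Cars in each fit but the one without S-Rcm 12 h 3 (at most 0.102), while DESeq2 on the 18 libraries called 9 of the ATF4 targets.

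Signalling and clock genes gave scattered falls. Ndrg1, a stress- and hypoxia-responsive gene and the 1 DEG of 28 hypoxia and glycolysis genes, was at 102, 102 and 91.7 CPM in Scm and at 50.3, 47.4 and 47.9 CPM in S-Rcm 12 h (log2 fold change −1.02 ± 0.09, adjusted p = 1.91e-05, edgeR). Its level in each exchanged library was well under that in Scm, and the call held with any library left out. Egr3, an immediate-early zinc finger factor, was at 47.1, 45.3 and 39.5 CPM and then 17.7, 17.9 and 13.1 CPM (log2 fold change −1.44 ± 0.30, adjusted p = 0.0256, edgeR), the 1 DEG of 30 ERK-responsive genes, whose median was −0.28. The BMP target Id2 was at 83.3, 91.2 and 93.1 CPM and then 58.3, 57.3 and 58.2 CPM (log2 fold change −0.62 ± 0.13, adjusted p = 0.0241, edgeR), and Hey1, a Notch and BMP target, fell from 8.29, 9.98 and 8.45 CPM to 5.20, 4.03 and 4.92 CPM (−0.91 ± 0.22, adjusted p = 0.0471, edgeR). These were the DEGs of 22 TGF-beta and BMP readouts, among which Id1, Id3 and Id4 were at −0.34, −0.42 and −0.55 and did not pass. Of 19 clock genes 3 were above 0, beside 53.5% of all genes, and the median was −0.29. The repressors Per1 at −0.63 and Cry1 at −0.69 were lower and the output factor Hlf at 1.31 was higher (adjusted p = 0.0376, 0.0348 and 0.0353, edgeR). The calls of Egr3, Id2, Hey1, Per1 and Cry1 were lost in each fit with a library left out (adjusted p between 0.0569 and 0.171), and that of Hlf in each but the fit without S-Rcm 12 h 2 (at most 0.159).

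The next 6 genes, named among the largest falls, stood in none of the lists. Slc6a4, the serotonin transporter, was at 14.7, 16.6 and 14.6 CPM in Scm and at 7.89, 7.45 and 8.78 CPM in S-Rcm 12 h (log2 fold change −0.93 ± 0.15, adjusted p = 0.00594, edgeR). Cckar, a receptor of cholecystokinin, was at 8.29, 8.74 and 7.01 CPM and then 2.90, 3.75 and 2.81 CPM (log2 fold change −1.34 ± 0.25, adjusted p = 0.012, edgeR). Ramp3, an accessory protein of calcitonin-family receptors, was at 142, 164 and 143 CPM and then 91.8, 75.4 and 89.5 CPM (log2 fold change −0.81 ± 0.16, adjusted p = 0.0219, edgeR). No exchanged library reached the lowest Scm library for any of the 3. Abi1, a component of the WAVE actin regulator, went from 158, 156 and 166 CPM to 82.3, 91.3 and 91.1 CPM (log2 fold change −0.86 ± 0.14, adjusted p = 0.00668, edgeR). Sgms2, a sphingomyelin synthase, fell by 1.43 and the synaptic adhesion gene Lrrtm2 fell by 1.11 on the log2 scale (adjusted p = 0.0156 and 0.0192, edgeR). Slc6a4 and Abi1 held in all 6 fits with a library left out. Ramp3 was lost in each (0.0584 to 0.103), Sgms2 without any 1 of the Scm libraries (at most 0.0773), Cckar without Scm 1, Scm 2, S-Rcm 12 h 1 or S-Rcm 12 h 3 (at most 0.0725) and Lrrtm2 in each fit but the one without S-Rcm 12 h 2 (at most 0.0976).

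Sterol and lipid synthesis genes gave no DEG at 12 h, and few ferroptosis genes did. For the 20 enzymes of cholesterol biosynthesis, the 23 of fatty acid synthesis and the 17 SREBP factors and targets, edgeR called 0 DEGs, with 1, 3 and 2 genes at an unadjusted p under 0.05 beside 14.3% of all genes, and DESeq2 on the 18 libraries also called 0. In these lists 17, 15 and 9 genes were above 0, beside 53.5% of all genes. The medians were 0.099, 0.054 and 0.004 on the log2 scale, against 0.019 for all genes. The summed level of the cholesterol enzymes did not overlap, at 2315 to 2371 CPM in Scm and 2446 to 2470 CPM in S-Rcm 12 h. Fdps, the farnesyl diphosphate synthase of the mevalonate pathway, was at 188, 198 and 179.5 CPM in Scm and at 197, 193 and 209.8 CPM in S-Rcm 12 h. The 2 ranges overlapped and the log2 fold change was 0.09 ± 0.15 (adjusted p = 0.866, edgeR), and the S-Rcm 24 h libraries were higher, at 370.5, 322 and 336 CPM. Hmgcs1 and Insig1 were at 0.16 and 0.00 on the log2 scale, Srebf2 and Srebf1 at 0.03 and −0.05, the desaturase Scd1 at 0.17 and Fasn at −0.35. Gpx4 was at 108, 124 and 119 CPM in Scm and 125, 109 and 127 CPM in S-Rcm 12 h (log2 fold change 0.04 ± 0.08, adjusted p = 0.869, edgeR), and Acsl4, which activates polyunsaturated fatty acids, was at 0.08. Of the 32 ferroptosis genes 2 were DEGs: Cars, already given, and the iron exporter Slc40a1, which went from 0.535, 0.416 and 1.10 CPM to 2.14, 2.63 and 2.99 CPM (log2 fold change 1.92 ± 0.42, adjusted p = 0.0308, edgeR). The call of Slc40a1 was lost in each fit but the one without Scm 3 (adjusted p at most 0.162). Apoh, named in the title of the study, had 0 to 7 counts in each library, too few to be tested.

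Cell cycle genes likewise gave 0 DEGs in edgeR among 30 of DNA replication, 30 of mitosis and 24 inhibitors and p53 targets, with 2, 3 and 3 at an unadjusted p under 0.05 beside 14.3% of all genes, and DESeq2 called 0 in the replication and mitosis lists. The mitosis list had a median log2 fold change of 0.18 with 28 of 30 above 0, beside 53.5% of all genes. Mki67 was at 0.26 and Ccnd1 at −0.20 (adjusted p = 0.644 and 0.441, edgeR). Cdkn1a, the inhibitor p21, was at 138, 144 and 143 CPM in Scm but at 40.1, 106 and 138 CPM in S-Rcm 12 h, so that the exchanged libraries differed from one another by more than the groups did (log2 fold change −0.58 ± 0.31, adjusted p = 0.416, edgeR). The lowest of these was S-Rcm 12 h 1, without which the log2 fold change was −0.21.

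The largest log2 fold change belonged to an identifier that shares its locus with others. It is listed as Ndor1, a diflavin reductase gene, and spans chr2:25244819-25246863 on the minus strand, where GENCODE M21 annotates 2043 of its exon bases also in the main Ndor1 gene. The identifier had 1, 13 and 17 counts in Scm and 245, 264 and 232 in S-Rcm 12 h (log2 fold change 4.37 ± 0.81, adjusted p = 0.0184, edgeR), while the main Ndor1 identifier had 602, 440 and 497 and then 384, 409 and 378. Summed over the 3 identifiers of this name, Ndor1 was at 33.9, 32.0 and 35.4 CPM in Scm and 35.4, 37.8 and 35.7 CPM in S-Rcm 12 h and was no longer called. R-Scm 12 h 2 had the Scm pattern, with 14 counts on the first identifier and 658 on the main one, although the other 2 libraries of its group had 244 and 228 on the first. Vmn1r43, a vomeronasal receptor gene, was at 0.963, 0.485 and 0.0687 CPM and then 3.12, 3.25 and 3.86 CPM (log2 fold change 2.67 ± 0.43, adjusted p = 0.00539, edgeR), and shares 153 exon bases with its neighbour Vmn1r42. Syt7, a calcium sensor of exocytosis, was at 5.88, 5.82 and 4.33 CPM and then 27.8, 24.0 and 10.1 CPM (log2 fold change 1.94 ± 0.32, adjusted p = 0.00619, edgeR), with S-Rcm 12 h 3 well under the other exchanged libraries. Lgr6, an R-spondin receptor, Btn1a1, a butyrophilin, and Wnt9a, a Wnt ligand, rose by 2.16, 1.98 and 1.26 on the log2 scale (adjusted p = 0.012, 0.0316 and 0.00372, edgeR). Vmn1r43 and Wnt9a held with any library left out, Syt7 was lost without Scm 3 (adjusted p = 0.0503), and the calls of Ndor1, Lgr6, Tgtp1, Gbp9 and Btn1a1 were lost in 4 or more of the 6 fits (at most 0.178).

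Among DEGs that no list held, the following were picked after their values were seen, from those called with any library left out. Spp1, the secreted phosphoprotein osteopontin, was at 158, 169.5 and 189 CPM in Scm and at 455, 484 and 419.7 CPM in S-Rcm 12 h (log2 fold change 1.39 ± 0.16, adjusted p = 0.000237, edgeR). Aqp1, a water channel, was at 18, 19.9 and 19.4 CPM and then 40.9, 37.1 and 38.9 CPM (log2 fold change 1.03 ± 0.10, adjusted p = 3.26e-05, edgeR). Artn, a ligand of the GDNF family, was at 6.69, 7.35 and 5.91 CPM and then 16, 16 and 13.2 CPM (log2 fold change 1.18 ± 0.17, adjusted p = 0.00309, edgeR). In each of the 3 the exchanged libraries lay about 2-fold or more above Scm. Alas1, the first enzyme of haem synthesis, had nearly equal libraries at 30.6, 30.5 and 30.5 CPM in Scm and 51.8, 48.7 and 51.0 CPM after the exchange (log2 fold change 0.73 ± 0.11, adjusted p = 0.00372, edgeR). Among the falls, the fatty acid transporter Slc27a1 went from 103, 109 and 97.7 CPM to 68.1, 58.2 and 61.4 CPM (log2 fold change −0.73 ± 0.11, adjusted p = 0.00415, edgeR), and Dynap, an AKT pathway membrane protein, from 414, 430.3 and 426 CPM to 241, 257 and 261 CPM (−0.74 ± 0.10, adjusted p = 0.00165, edgeR).

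By 24 h in Rcm, several detoxifying enzymes were back near their Scm levels. Gsta4 stood at 33.8, 38.4 and 41.1 CPM at 24 h, within or just above the Scm range, and was lower than at 12 h by a log2 fold change of −1.64 ± 0.10 (adjusted p = 3.56e-07, edgeR). Nqo1 at 151, 162 and 177 CPM and Ptgr1 at 32.0, 30.8 and 34.2 CPM were also lower at 24 h than at 12 h, by −1.05 and −1.25 on the log2 scale (both adjusted p = 0.000258, edgeR). Calr, at 780.4, 815 and 819.6 CPM, was lower by −0.59 ± 0.07 (adjusted p = 0.000618, edgeR), and Asns, at 93.2, 100.1 and 99.6 CPM, was higher by 0.85 ± 0.16 (adjusted p = 0.0384, edgeR). Angptl4, at 22.5, 34.6 and 40.9 CPM, and Cpt1a, at 118, 117 and 123 CPM, stayed near their 12 h levels, with log2 differences of −0.02 and −0.07. Mmp3 was at 116, 264 and 251 CPM at 24 h, with a log2 difference of −1.76 ± 0.34 that missed the threshold (adjusted p = 0.0522, edgeR). Hspa5 varied at 24 h, at 708, 379 and 639.5 CPM, with S-Rcm 24 h 2 near the Scm level. The 24 h against 12 h contrast shares the S-Rcm 12 h libraries with the comparison above, so the values are not independent of the 12 h calls.

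The opposite exchange separates genes that moved the same way after either medium change from genes that moved opposite ways. It shares no library with the comparison above. In R-Scm 12 h against Rcm, 2.74% of all genes were DEGs, 1.51% higher and 1.22% lower. Of the 92 genes higher in S-Rcm 12 h, 13 were also higher in R-Scm 12 h, 9 were lower and 70 were not DEGs there. Of the 40 lower genes, 5 were also lower, 6 were higher and 29 were not DEGs. Higher after both exchanges were Mmp3, Mmp13, Hspa5, Cxcl10, Cxcl1, Oasl1, Gsta1, Cyp26b1 and Spp1, with Ptx3, Rarres1, Iqgap2 and Zcwpw1. Hspa5 had a log2 fold change of 0.88 ± 0.16 in R-Scm 12 h (adjusted p = 0.00437, edgeR), and Mmp3 one of 2.71 ± 0.35 (adjusted p = 0.000532, edgeR). Higher in S-Rcm 12 h and lower in R-Scm 12 h were Angptl4, Cpt1a, Stra6, Dhrs3, Loxl2, Aox1, Aldh1a7, Lsp1 and Pitpnc1. Angptl4 fell by 0.96 and Cpt1a fell by 0.88 on the log2 scale in R-Scm 12 h (adjusted p = 0.00485 and 0.00223, edgeR). Slc6a4, Cckar, Dynap, Id2, Hey1 and Ramp3 were lower in S-Rcm 12 h and higher in R-Scm 12 h, by 1.27, 1.69, 1.27, 0.74, 1.04 and 0.81 on the log2 scale there. Lower after both were Gpt2, Per1, Kdm6b, Mnt and the pseudogene Zfp520-ps.

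The difference between the 2 exchanges was tested in the same fit, as the log2 fold change in S-Rcm 12 h against Scm minus that in R-Scm 12 h against Rcm. It passed both thresholds for 35 of the 92 higher DEGs (38%) and 17 of the 40 lower DEGs (42.5%), beside 312 of all genes (2.03%). The DEGs were chosen for a large change in 1 of the 2 terms, so their shares are not a result about the genes. Gsta4 was at 41.6, 42.6 and 39.8 CPM in R-Scm 12 h, where its log2 fold change was −0.00 ± 0.10, and the difference between the exchanges was 1.72 ± 0.15 (adjusted p = 1.38e-05, edgeR). Nqo1 and Ptgr1 had smaller log2 fold changes of 0.49 and 0.51 in R-Scm 12 h, and differences of 0.76 and 0.75 (adjusted p = 0.0148 and 0.0445, edgeR). For Angptl4 the difference was 2.96 ± 0.26 (adjusted p = 1.5e-05) and for Cpt1a 1.83 ± 0.20 (adjusted p = 0.000155, edgeR). The level of Angptl4 in S-Rcm 12 h, 28.1 to 35.7 CPM, lay around that in steady Rcm, 27.0 to 30.8 CPM, and R-Scm 12 h lay at 13.3 to 15.8 CPM, between Rcm and Scm. The difference did not pass for Hspa5 (0.21 ± 0.22, adjusted p = 0.748), Mmp3 (−1.0 ± 0.47, adjusted p = 0.337), Cxcl10 (0.46 ± 0.25, adjusted p = 0.412) or Atf5 (−0.50 ± 0.24, adjusted p = 0.359, edgeR), which does not show that the 2 exchanges changed them alike. For Fdps it was the opposite exchange that changed the gene, by −1.91 ± 0.16 on the log2 scale (adjusted p = 5.08e-06), and the difference was 2.0 ± 0.21 (adjusted p = 0.00011, edgeR).

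**Figure D4:**
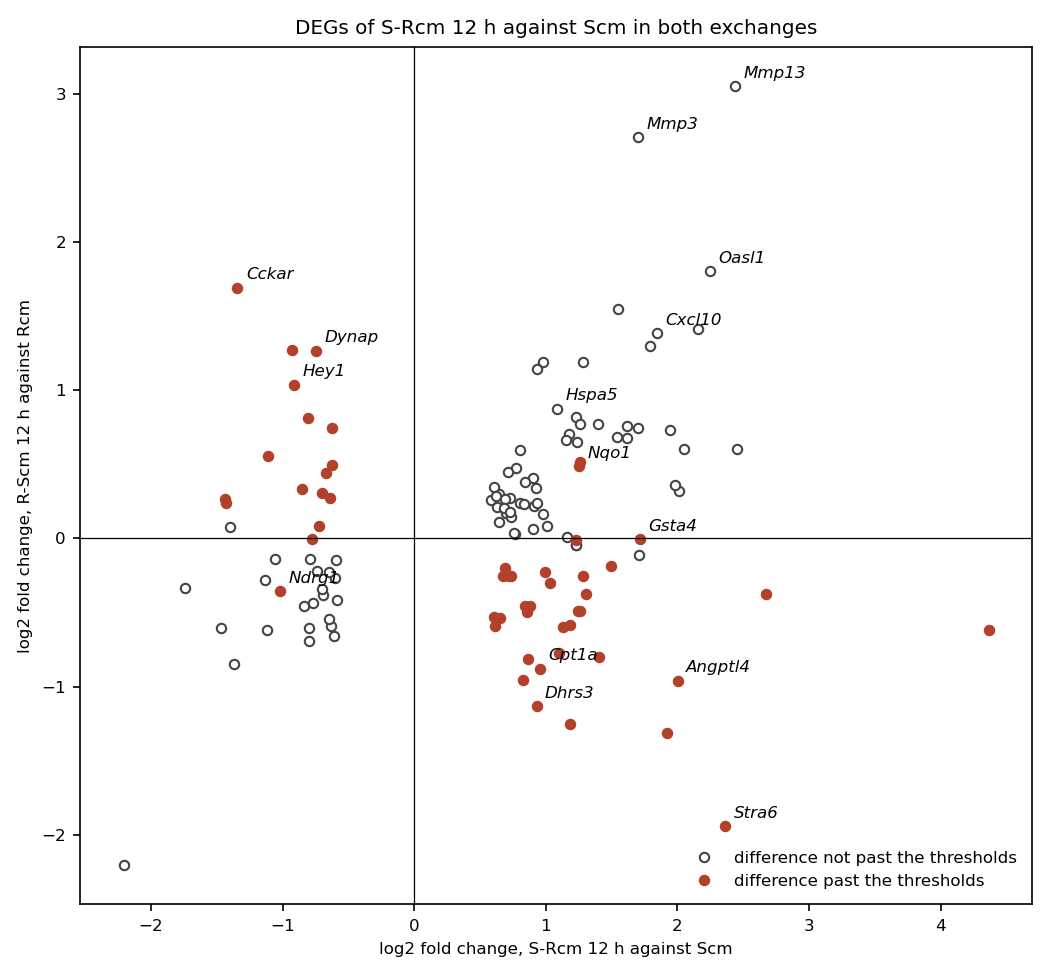
Log2 fold change of the 132 DEGs in S-Rcm 12 h against Scm (horizontal axis) and in R-Scm 12 h against Rcm (vertical axis), with filled points where the difference between the exchanges passed the thresholds. Angptl4 lies at 2.0 and −0.96, Mmp3 at 1.70 and 2.71, and Gsta4 at 1.72 and 0.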

How the data were processed

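RNA-seq counts per gene of 18 MEF libraries, 3 in each of 6 groups, were analysed as deposited. Per the labels and the study's methods, the authors extracted RNA with an RNeasy kit, made mRNA-seq libraries, sequenced them paired-end, aligned the reads to GRCm38 with HISAT2 and deposited raw whole-number counts per Ensembl gene. The counting tool, its strand setting and its treatment of reads with several matches are not given in the sources used here, so reads of near-identical or overlapping genes can be divided in ways not known here. Samples were grouped by their titles.

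Of 55487 genes, edgeR's filterByExpr kept 15381. CPM and fold changes used TMM factors. A quasi-likelihood fit of 1 mean per group (edgeR 4.0.16, limma 3.58.1, R 4.3.3, 12 residual degrees of freedom) gave all contrasts, with p-values adjusted over all genes tested. An SE is that of the fitted log2 fold change. The thresholds follow the study's methods, in which DESeq2 was used. DESeq2 1.42.0, other size factors, other filters, a replicate block, smaller fits and leaving out each library were the alternatives. The script was tested on simulated counts. Totals ran from 14534906 to 20313715 counts. Over all genes, libraries of a group differed beyond counting noise, but counting error weighs more in genes with few counts. The precision is also limited by n = 3. An exact permutation test of 3 against 3 cannot go below 0.1.

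Coordinates are from GENCODE M21 (GRCm38), which matched 55141 identifiers, all 132 DEGs among them. Promoters are from RefSeq (GRCm38.p6). Transcript copies of at least 95% identity over 100 bases were found with blastn 2.17.0, and plots were drawn with matplotlib 3.10.9 in Python 3.11.15. The genes named were the 16 largest rises and 12 largest falls among DEGs averaging 1 CPM or more, with a symbol that is not a Gm or Rik model and no overlap between groups, then every DEG in a list, then 18 genes always shown (some are not reported here), then relatives of a named DEG in its list. The groups compared and the lists were chosen with earlier results of these data known, and 4 lists (ER chaperones, aminoacyl-tRNA synthetases, glutathione transferases, aldehyde and ketone enzymes) were written after the values were seen. No set test was run.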

Additional observations from a re-analysis of the deposited data

Results flagged for a closer look

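The genes below drew attention because their change in S-Rcm 12 h against Scm differed from their change in R-Scm 12 h against Rcm, by the test of that difference in the same edgeR fit (adjusted p under 0.05 and a difference above 0.58 in size). Values are the first log2 fold change minus the second. Among genes of fat and vitamin A handling the difference was 2.96 for Angptl4, 1.83 for Cpt1a, 4.30 for Stra6 and 2.06 for Dhrs3. Among detoxifying enzymes it was 2.43 for Aox1, 1.74 for Mgst2, 1.72 for Gsta4, 1.21 for Aldh1a7, 0.76 for Nqo1 and 0.75 for Ptgr1. Among sterol and lipid synthesis genes, which passed no threshold in S-Rcm 12 h against Scm and were lower in R-Scm 12 h, it was 2.0 for Fdps, 1.92 for Insig1, 1.80 for Hmgcs1, 1.17 for Scd1 and 0.84 for Srebf2.

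The identifier listed as Ndor1 had a difference of 4.98. It shares exon bases with the main Ndor1 gene, and its 3 R-Scm 12 h libraries disagree with one another. Other genes with a difference above 0 were of mixed kinds, with 3.23 for Slc40a1, 3.05 for Vmn1r43, 1.75 for Wnt9a, 1.68 for Hlf, 1.68 for Loxl2 and 1.29 for Rcn3. Genes with a difference below 0 were also of mixed kinds, with −3.03 for Cckar, −2.20 for Slc6a4, −1.62 for Ramp3, −1.19 for Abi1, −1.67 for Lrrtm2 and −1.67 for Sgms2. Among regulators of transcription and stress genes it was −1.95 for Hey1, −1.70 for Egr3, −1.36 for Id2, −1.01 for Ddit3 and −0.66 for Ndrg1.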

How the results depend on the processing

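The number of DEGs in S-Rcm 12h against Scm, 132, changed with the tool and with the libraries in the fit. It was 254 in DESeq2 on all 18 libraries, 357 in DESeq2 on the 6 libraries, 260 in edgeR on the 6 and 215 in edgeR on the 12 libraries of both 12 h contrasts, the last fit added after seeing the data. Leaving out each of the 6 libraries in turn gave 36 to 76. Other size factors (128), no filter on low counts (113), at least 10 counts in every library (120), counts summed over identifiers with one symbol (131, added after seeing the data) and the adjusted p alone (193) stayed within 1.5 times. Higher calls were 69.7% of 132 and 56.5% of 193. Genes whose change differed between the 2 exchanges at 12h numbered 312, 468 in DESeq2 and 176 to 289 with a library left out. No value named here changed sign where it had been called.

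Deviations from the group mean of same-numbered Scm and S-Rcm 12 h libraries correlated at −0.10, −0.35 and −0.11. Those of differently numbered libraries correlated at −0.13 to 0.22. Deviations from a mean of 3 are not independent, so these values cannot show whether the numbers pair the samples. The numbers are those of the titles, and the deposited counts of R-Scm 12 h and of both 24 h groups are numbered otherwise. With the replicate number as a block, 121 DEGs in S-Rcm 12h against Scm were called on 18 libraries and 17 on the 6, where few residual degrees of freedom remain. Low counts limit genes near 1 CPM, among them Gsta1, Gsta2, Stra6, Oasl1, Slc40a1 and Vmn1r43.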

Other observations

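Lists not described above gave few DEGs. Of 15 glucocorticoid-responsive genes, Angptl4 and Per1, already given, were the DEGs, and Fkbp5 and Tsc22d3, textbook targets of the receptor, were at 0.23 and −0.37 on the log2 scale (adjusted p = 0.215 and 0.334, edgeR). Of 18 Wnt genes Wnt9a was the DEG, and Axin2, a feedback gene of the pathway, was at 0.22 (adjusted p = 0.75). The 19 selenoproteins and related genes, the 7 LXR targets, the 13 mitochondrially encoded genes and the 23 FOXO and growth factor signalling genes gave 0 DEGs in edgeR, with 5, 2, 1 and 7 at an unadjusted p under 0.05 beside 14.3% of all genes. Sephs2, which makes the selenium donor of selenoprotein synthesis, was at −0.47 (adjusted p = 0.0344), under the fold threshold. The 13 mitochondrially encoded genes had a median of −0.15 with 1 above 0, and took 1.81% to 2.36% of the counts in the 6 libraries.

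Processed pseudogenes were 8 of the 40 lower DEGs, and 6 of them are near copies of a protein-coding gene that had a log2 fold change nearer 0 and was no DEG. The pseudogene Rps4x-ps was at −1.06 (adjusted p = 0.0156, edgeR) and Rps4x at −0.13, Rps2-ps6 was at −0.79 and Rps2 at −0.08, Gm10689 was at −1.47 and Rps23 at −0.18, and Gm17936 was at −1.13 and Cnn3 at −0.10 on the log2 scale. Likewise Gm5537 was at −1.40 and Pgk1 at −0.38, and Gm18726 was at −1.74 and Zc3h14 at −0.22. Of the other two, Hist1h2al was at −1.37 beside its near copy H2ac18 at 0.98 ± 2.16 (SE), and Zfp520-ps at −2.21 had no near copy. The 3 higher pseudogenes moved with their parents, with Esd-ps at 0.68 and Gm17222 at 0.69 beside Esd at 0.85, and Gm12138 at 0.64 beside Akr1b3 at 0.61. Gm10689 and Rps23 are 99.1% identical over 432 bases and Gm12138 and Akr1b3 99.1% over 951. The part of read allocation in these values was not tested.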
